A study of Mus musculus with 17 samples.

Results

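The genes described here encode the tubulins that polymerise into microtubules, the proteins that bind and stabilise microtubules, the kinesin and dynein motors that run along them, and the neurofilament subunits. They were chosen by a rule on annotation, set with earlier results of these data known. It takes every probe set on either of the array types, chip A and chip B, with a single gene symbol that begins with Tuba, Tubb, Tubg, Kif, Klc, Dync, Dynl, Stmn or Mapre, or that is Nefl, Nefm, Nefh, Ina, Map1a, Map1b, Map2, Map4, Map6 or Mapt. The rule found 57 probe sets of 42 genes, of 7542 probe sets of 6137 genes that carry 1 symbol. Chip A holds 43 of them and chip B 14, and 11 genes have several. Map1a and Map6 are not among the 42. The rule also takes in Tubb2a-ps2, a tubulin pseudogene, Tubgcp3 and Tubgcp4, which join gamma-tubulin in its ring complex, and Kifap3, the adaptor of kinesin-2.

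RNA came from liver and hippocampus of male Rj:NMRI mice, an outbred stock whose age is not in the labels. All mice ate a purified AIN93G diet, fat-free at its base, to which milk fat, palm olein, sunflower oil, soybean oil and medium chain triacylglycerol oil were added. The control diet held no test oil. In the fungal oil diet 1.1% of an oil rich in arachidonate, in the fish oil diet 1.9% of an oil rich in docosahexaenoate, and in the diet with both oils both of these took the place of some medium chain triacylglycerol, so each test oil and the loss of that fat cannot be told apart. Each diet was given to 10 mice, of which 5 were selected, and the mice were killed on day 57 or 58. Mice were housed 10 to a cage, so cage and diet cannot be told apart either. Liver gave 5 RNAs, 2 of control mice and 1 of each oil diet, on both chips. Hippocampus gave 1 RNA per diet, and that of mice fed both oils was analysed on chip B alone. The labels used here state neither whether an RNA is a pool of the selected mice nor whether the liver controls are RNAs of different animals. The p-values therefore reflect only how these RNAs vary, and that spread can be technical.

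Microtubules are hollow polymers of alpha- and beta-tubulin dimers, seeded by gamma-tubulin and kept dynamic by stathmins, which bind free dimers. In neurons they run the length of axons and dendrites, are bundled by tau and other microtubule-associated proteins, and serve as tracks for kinesins, most of which carry cargo towards the plus end, and for dynein, which carries it back. Neurofilaments, made of the light, medium and heavy subunits with alpha-internexin, fill the axon and set its calibre. Hepatocytes hold microtubules as well, which carry lipoproteins and other secretory cargo.

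Each array gave 1 intensity per probe set, in arbitrary units, which was below 0 for some. Over 17 arrays the mean intensity after trimming 2% at each end lay between 146 and 149. The tissue labels were checked against markers. Of 7 neuron markers tested, 6 were called higher in hippocampus and 0 lower, and all 5 hepatocyte markers tested were lower. Cyp2e1, a hepatocyte enzyme, read -23 to 4 on the hippocampus arrays and 8671 to 13101 on the liver arrays. The ratio of 3-prime to 5-prime signal, a sign of RNA or labelling quality, differed between the tissues. For Gapdh it was 0.840 to 0.947 over 6 hippocampus arrays and 1.89 to 3.26 over 10 liver arrays, and for actin 1.33 to 1.55 and 3.32 to 4.17. The chip B fish oil array of hippocampus had no ratio. In liver the Gapdh ratio was 1.91 to 2.23 in the controls and 2.48 and 2.51 with fungal oil. With fish oil it was 1.95 and 3.26, and with both oils 1.89 and 1.92. Its part in the liver diet differences was not tested. The ratio goes with tissue in each comparison of hippocampus with liver given here, and its part in them was not tested. Array titles split by tissue as well, ending in ab150 for hippocampus and in sc for liver. Whatever these endings mark cannot be told apart from tissue.

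Upstream sequence of 6 genes is shown because the results turn on them: Tuba1a, Tubb5 and Tubb4b for the liver diets, Klc1 and Tubb3 as members far higher in hippocampus, and Kif1c as a member higher in liver. RefSeq's table of promoters (GRCm38.p6; 250 bases before to 50 after an annotated start) matched 32 of the 42 genes with 38 promoters. Each is printed 5′ to 3′ on the strand of its gene. Capitals mark matches, on either strand, to 5 motifs: the TATA box (TATAAA), the CCAAT box (CCAAT), the GC box (GGGCGG), and a left (CAGCACC) and a right (GGACAGC) part of RE1, the element bound by the neuronal repressor REST. No motif lies within another, and 1 pair of GC boxes in Kif1c lies 1 base apart.
Tuba1a, chr15:98953452-98953751, minus strand: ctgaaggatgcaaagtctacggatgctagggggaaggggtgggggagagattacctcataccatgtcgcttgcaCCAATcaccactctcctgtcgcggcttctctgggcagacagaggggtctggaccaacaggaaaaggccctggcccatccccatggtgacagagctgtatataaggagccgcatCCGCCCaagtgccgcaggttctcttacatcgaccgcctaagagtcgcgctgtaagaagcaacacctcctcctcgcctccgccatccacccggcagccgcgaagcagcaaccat
Tubb5, chr17:35838252-35838551, minus strand: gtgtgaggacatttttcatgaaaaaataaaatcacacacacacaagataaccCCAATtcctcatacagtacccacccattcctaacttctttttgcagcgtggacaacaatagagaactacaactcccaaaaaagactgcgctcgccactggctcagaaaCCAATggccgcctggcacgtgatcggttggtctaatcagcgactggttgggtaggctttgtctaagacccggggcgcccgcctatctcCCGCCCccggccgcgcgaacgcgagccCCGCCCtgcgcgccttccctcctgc
Tubb4b, chr2:25224653-25224952, minus strand: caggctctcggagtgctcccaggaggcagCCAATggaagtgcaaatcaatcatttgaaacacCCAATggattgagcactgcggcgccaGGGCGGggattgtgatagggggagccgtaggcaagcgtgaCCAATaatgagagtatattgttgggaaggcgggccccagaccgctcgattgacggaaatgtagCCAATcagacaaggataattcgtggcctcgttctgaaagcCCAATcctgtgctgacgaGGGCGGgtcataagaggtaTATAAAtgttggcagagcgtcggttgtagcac
Klc1, chr12:111758618-111758917, plus strand: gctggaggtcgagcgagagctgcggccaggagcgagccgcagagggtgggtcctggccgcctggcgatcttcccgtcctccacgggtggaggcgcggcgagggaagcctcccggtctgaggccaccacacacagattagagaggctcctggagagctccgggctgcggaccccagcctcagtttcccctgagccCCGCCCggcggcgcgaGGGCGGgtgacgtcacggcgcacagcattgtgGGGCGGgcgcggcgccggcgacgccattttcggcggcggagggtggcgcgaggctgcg
Tubb3, chr8:123411303-123411602, plus strand: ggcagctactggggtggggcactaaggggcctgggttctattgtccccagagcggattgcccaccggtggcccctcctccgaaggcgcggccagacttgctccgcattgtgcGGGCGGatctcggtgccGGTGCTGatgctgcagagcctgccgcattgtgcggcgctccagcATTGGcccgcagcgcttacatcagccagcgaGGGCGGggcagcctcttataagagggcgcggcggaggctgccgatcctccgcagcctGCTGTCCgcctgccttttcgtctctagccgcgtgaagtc
Kif1c, chr11:70700298-70700597, plus strand: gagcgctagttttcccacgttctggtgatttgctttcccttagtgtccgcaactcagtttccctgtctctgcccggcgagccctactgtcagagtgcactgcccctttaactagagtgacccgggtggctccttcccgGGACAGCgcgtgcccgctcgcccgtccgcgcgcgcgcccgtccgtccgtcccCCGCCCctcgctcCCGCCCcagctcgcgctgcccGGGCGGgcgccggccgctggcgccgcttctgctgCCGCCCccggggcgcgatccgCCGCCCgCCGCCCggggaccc
Tubb4b held 5 CCAAT boxes and Tubb5 held 2, while Tuba1a and Tubb3 held 1 each. Kif1c held 6 GC boxes and Klc1 held 3. Of these 6 promoters, Tubb3 alone held both RE1 parts, apart from each other and on the reverse strand. Across the 38 promoters of members, 42.1% held a CCAAT box, 71.1% a GC box, 13.2% a TATA box, 21.1% the left and 10.5% the right RE1 part. The same shares over all 32851 promoters of the table were 37.4%, 35.7%, 13.6%, 7.14% and 6.56%. A match is a string of letters and not a binding site.

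Most of these genes were higher in hippocampus than in liver. Of 40 genes tested, 27 were called higher and 2 lower, where a call needs an adjusted p under 0.05 in limma, fitted with tissue and diet as terms, and at least 2-fold. The same call was made for 26.1% of the 5251 genes tested in the higher direction and 17.4% in the lower. The median log2 difference was 2.10 over members and 0.20 over all genes, and with quantile normalization of the arrays it was 2.10 and -0.0092, with 30 members called higher and 2 lower. Another 3 members passed at under 2-fold, 8 did not pass, and Kif16b and Kifc1, at or near the floor on every array, were not tested. The floor is an intensity of 15, to which lower values were raised. The 27 include Map2, Map4, Kif2a, Klc1, Nefl, Nefm and Nefh, whose representative probe sets were at the floor on every liver array. They were tested only because hippocampus was above the floor, and their p reflects no variation among the liver arrays. In 33 of the 42 genes the hippocampus and liver arrays did not overlap, and in 30 of those hippocampus was higher. Over all 6137 genes, 32.8% did not overlap with hippocampus higher and 21.4% with liver higher. In whole tissue, fewer cells of a type and less RNA per cell cannot be told apart.

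**Figure D1:**
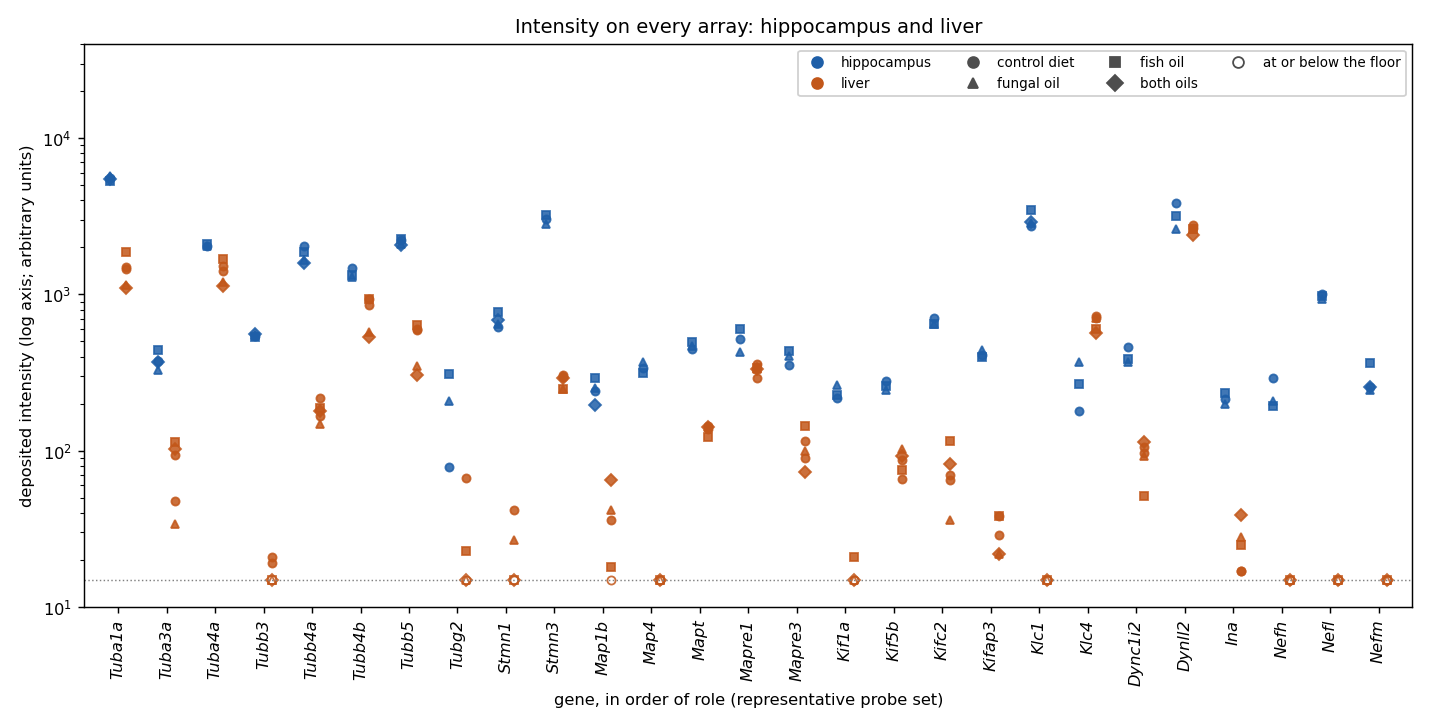
Deposited intensity (log axis, arbitrary units) on every array for the 27 genes whose representative probe set is at or above the 75th percentile of its chip in hippocampus. Blue points are hippocampus arrays and orange points liver arrays, shapes give the diet, and open points were at or below the floor of 15. For Map4, Klc1, Nefl, Nefm and Nefh each liver point is at the floor, for Klc4 the liver points are above the hippocampus points, and for Dynll2 they overlap.

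Alpha-tubulins, which with beta-tubulin form the dimer, were higher in hippocampus by amounts that differed among the 3 genes. Tuba1a, an alpha-tubulin abundant in neurons, read 5554 with control diet, 5706 with fungal oil, 5353 with fish oil and 5511 with both oils in hippocampus. In liver it read 1451 and 1504 in the controls, 1154 with fungal oil, 1857 with fish oil and 1099 with both oils. The groups did not overlap, and Tuba1a was 3.96-fold higher in hippocampus (log2 difference 1.99, SE 0.13; limma, adjusted p = 1.60e-05). A probe set on chip A gave nearly the same difference, 2.01 (SE 0.14). Tuba3a, best known from testis, read 328 to 439 in hippocampus and 34 to 114 in liver, a log2 difference of 2.37 (SE 0.31; limma, adjusted p = 0.000477). Tuba4a, an alpha-tubulin of many adult tissues, read 2049, 2047 and 2109 in hippocampus and 1136 to 1680 in liver. Its groups did not overlap either, but at 1.42-fold (log2 0.51, SE 0.10; limma, adjusted p = 0.00539) it stayed under the 2-fold needed for a call, which it passed with quantile normalization (1.21). The probe sets of Tuba1a and Tuba3a are of the kind whose name marks sequence shared within a gene family, as are 9 of the 57, so other alpha-tubulins may add to their signal.

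Beta-tubulins ranged from the neuronal Tubb3 to genes with little difference. Tubb3, the class III beta-tubulin used as a neuron marker, read 540, 551, 532 and 562 in hippocampus with control diet, fungal oil, fish oil and both oils. In liver its controls read 19 and 21, and the oil diets 0, -42 and -47. The log2 difference was 5.06 (SE 0.22; limma, adjusted p = 1.80e-06), which the floor on 3 liver arrays holds down. Tubb4a, which is known from neurons and oligodendrocytes, read 1588 to 2048 in hippocampus and 148 to 217 in liver, 10.0-fold (log2 3.33, SE 0.12; limma, adjusted p = 8.65e-07). Its chip A probe set was below the floor on every array and says nothing of the gene. Tubb5, a beta-tubulin of most cell types, read 2065 to 2257 and 307 to 641, 4.62-fold (log2 2.21, SE 0.17; limma, adjusted p = 3.32e-05). Tubb4b, likewise widespread, read 1479, 1289 and 1328 in hippocampus and 538 to 937 in liver, 1.72-fold, and passed under the 2-fold needed (log2 0.78, SE 0.13; limma, adjusted p = 0.00282), though with quantile normalization it was called (1.28). Tubb2a and Tubb2a-ps2 were dim in both tissues, at 17 to 85, with groups that overlapped, and did not pass. The probe sets of Tubb5 and Tubb4b are of the family kind, so other beta-tubulins may add to their signal.

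Of the gamma-tubulin complex, which seeds microtubules, 2 of 3 genes were called higher in hippocampus. Tubgcp3 read 116, 147 and 136 there and 20 to 55 in liver (log2 1.92, SE 0.34; limma, adjusted p = 0.00372). Tubg2, the gamma-tubulin known from brain, read 79, 209 and 309 in hippocampus and -52 to 67 in liver (log2 2.79, SE 0.73; limma, adjusted p = 0.0188). Its call rests on each hippocampus oil array: without the fungal oil array the adjusted p was 0.119, and without the fish oil array 0.120. Tubgcp4 did not pass, at a log2 difference of -0.07 (SE 0.27).

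Both stathmins, which sequester tubulin dimers, were higher in hippocampus. Stmn1 read 619, 651, 774 and 687 in hippocampus and -42 to 42 in liver, with 3 of 5 liver arrays at the floor (log2 5.07, SE 0.38; limma, adjusted p = 3.02e-05). Its probe set is of the family kind. Stmn3, a stathmin of the nervous system, read 3055, 2825 and 3205 in hippocampus and 249 to 303 in liver, 11.2-fold (log2 3.48, SE 0.09; limma, adjusted p = 8.49e-07). A companion probe set of Stmn3 gave a larger difference, 6.50 (SE 0.61), because it read 9 to 88 in liver.

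All 4 microtubule-associated proteins were called higher in hippocampus, and in none did the tissues overlap. Map2, which marks dendrites, read 144, 202 and 176 in hippocampus and was below 0 on each liver array, so it was at least 11.5-fold higher (limma, adjusted p = 4.68e-05). Such bounds set the mean of the hippocampus log2 values against the floor. They are given for members, here and below, where every liver array was at the floor. Such genes were tested only because hippocampus was above the floor, and their limma SE and p reflect no variation among the liver arrays. Map4, the form known from dividing and non-neuronal cells, read 340, 372 and 314 in hippocampus and -25 to 14 in liver, at least 22.8-fold higher (limma, adjusted p = 1.18e-05). Map4 is represented by 1 probe set. Map1b, a protein of growing axons, read 196 to 290 and 3 to 65 (log2 2.91, SE 0.45; limma, adjusted p = 0.00125). Mapt, which encodes tau, read 448, 467 and 495 in hippocampus and 123 to 143 in liver, 3.43-fold (log2 1.78, SE 0.12; limma, adjusted p = 4.61e-05).

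The end-binding proteins, which ride on growing plus ends, were both higher in hippocampus by limma, but Mapre1 by under 2-fold. Mapre3, the form known from brain and muscle, read 356, 402 and 435 in hippocampus and 73 to 144 in liver, 3.47-fold (log2 1.79, SE 0.15; adjusted p = 0.000155). Mapre1, the widespread form, read 516, 431 and 604 and 291 to 359, 1.54-fold (log2 0.62, SE 0.13; adjusted p = 0.00765). Of its 3 other probe sets, 2 differed more, at 1.55 (SE 0.27) and 2.15 (SE 0.26), and 1 was at the floor on all 8 arrays and was not tested. The mean over all 4, in which the latter counts as no difference, passed 2-fold at 1.08.

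Among kinesins that carry cargo, 5 of the 7 genes tested were called higher in hippocampus, 1 was called lower and 1 did not pass. Kif1a, the kinesin-3 that carries synaptic vesicle precursors, read 216, 264 and 227 in hippocampus and was at the floor on 4 of 5 liver arrays (log2 3.81, SE 0.24; limma, adjusted p = 4.25e-05). Kifc2, a minus-end kinesin known from neurons, read 702, 650 and 646 in hippocampus and 36 to 116 in liver, 10.1-fold (log2 3.33, SE 0.29; limma, adjusted p = 0.000179). Kif5b, the widespread kinesin-1 heavy chain, read 278, 244 and 259 and 66 to 103, 3.13-fold (log2 1.65, SE 0.19; limma, adjusted p = 0.000657). Kif3a and Kif3b, the kinesin-2 pair of cilia and axons, were dimmer, at 30 to 67 in hippocampus and -47 to 31 in liver, with log2 differences of 1.61 (SE 0.20) and 1.74 (SE 0.31). Neither was called with a floor 2.5 times as high, where the log2 differences were 0.42 and 0.57. Kif1c ran the other way. It is a kinesin-3 known from the Golgi and from podosomes of many cell types, and it read 164, 185 and 166 in hippocampus and 380, 382, 409, 411 and 395 in liver. That is 2.35-fold lower in hippocampus (log2 -1.24, SE 0.09; limma, adjusted p = 8.36e-05). Its call was lost when its dim companion probe set was averaged in, at -0.84. Kif1b was under 20 on every array and did not pass.

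Of the 4 kinesins tested that act in the spindle or depolymerise microtubules, Kif2a was called higher in hippocampus and 3 did not pass. Kif2a, a depolymerase known to prune axon branches, read 78, 106 and 95 in hippocampus and was below 0 on every liver array, at least 6.18-fold higher (limma, adjusted p = 0.000133). Kif20a, a kinesin of cytokinesis, read 156, 154, 176 and 150 in hippocampus and 106 to 153 in liver, and its tissues overlapped (log2 0.28, SE 0.17; limma, adjusted p = 0.213). Kif2c and Kif4 read at most 63 on any array, with log2 differences of 0.85 (SE 0.43; limma, adjusted p = 0.139) and 0.15 (SE 0.20). Kif2c was called at 1.45 without the hippocampus control array, and Kifc1 read at most 14. Of 7 other genes of dividing cells tested, 1 was called higher and 1 lower in hippocampus.

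The kinesin-1 light chains, which couple cargo to the motor, were called in opposite directions by their representative probe sets. The representative probe set of Klc1, the light chain known from neurons, read 2745, 2864, 3484 and 2927 in hippocampus and -5 to -80 in liver. It was at least 201.4-fold higher in hippocampus (log2 7.64, SE 0.15; limma, adjusted p = 5.52e-08). Each liver array was at the floor, so that SE and p reflect no variation among them. The other 3 probe sets of Klc1 gave other values, and the mean over all 4 was 1.17 (limma, adjusted p = 0.00113). In 1 the difference was 1.44 (SE 0.36), and 2 were called lower in hippocampus, at log2 differences of -2.99 (SE 0.53) and -1.41 (SE 0.30), with hippocampus values of -33 to 60 and liver values of 37 to 325. Klc1 is known to be spliced into many forms, and the files do not say which of them each probe set reads. Klc4, another kinesin light chain, read 179, 367 and 266 in hippocampus and 567 to 731 in liver, 2.73-fold lower in hippocampus (log2 -1.45, SE 0.21; limma, adjusted p = 0.00154). A companion probe set of Klc4 had the same sign at under 2-fold, -0.61 (SE 0.10). Kifap3 read 409, 438 and 400 in hippocampus and 22 to 38 in liver, 13.5-fold higher (log2 3.75, SE 0.25; limma, adjusted p = 5.05e-05).

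Of the dynein chains, Dync1i2, an intermediate chain that binds dynactin, read 462, 369 and 387 in hippocampus and 51 to 113 in liver, 5.07-fold (log2 2.34, SE 0.20; limma, adjusted p = 0.000138). Dynll2, a light chain shared by dynein, myosin and many other complexes, was bright in both tissues. It read 3859, 2635 and 3179 in hippocampus and 2405 to 2763 in liver, the tissues overlapped, and it did not pass (log2 0.28, SE 0.10; limma, adjusted p = 0.0670), though with quantile normalization it was called (1.18). In its other probe set the tissues did not overlap, and the difference passed at under 2-fold (log2 0.43, SE 0.12; limma, adjusted p = 0.0230), as did the mean over both (0.35; adjusted p = 0.0142). Both its probe sets are of the family kind.

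The neurofilament subunits were all called higher in hippocampus. Nefl, the light subunit, read 999, 928 and 984 in hippocampus and -38 to 14 in liver, at least 64.9-fold higher (limma, adjusted p = 1.85e-06). Nefm, the medium subunit, read 255, 246, 363 and 256 in hippocampus and was below 0 on every liver array, at least 18.6-fold higher (limma, adjusted p = 7.40e-06). Nefh, the heavy subunit, read 290, 209 and 193 in hippocampus and -13 to 10 in liver, at least 15.2-fold higher (limma, adjusted p = 3.38e-05). For these 3 genes every liver array was at the floor, so no liver level can be given. Ina, alpha-internexin, read 214, 198 and 233 in hippocampus and 17, 17, 28, 25 and 39 in liver, 9.59-fold (log2 3.26, SE 0.25; limma, adjusted p = 9.53e-05).

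**Figure D2:**
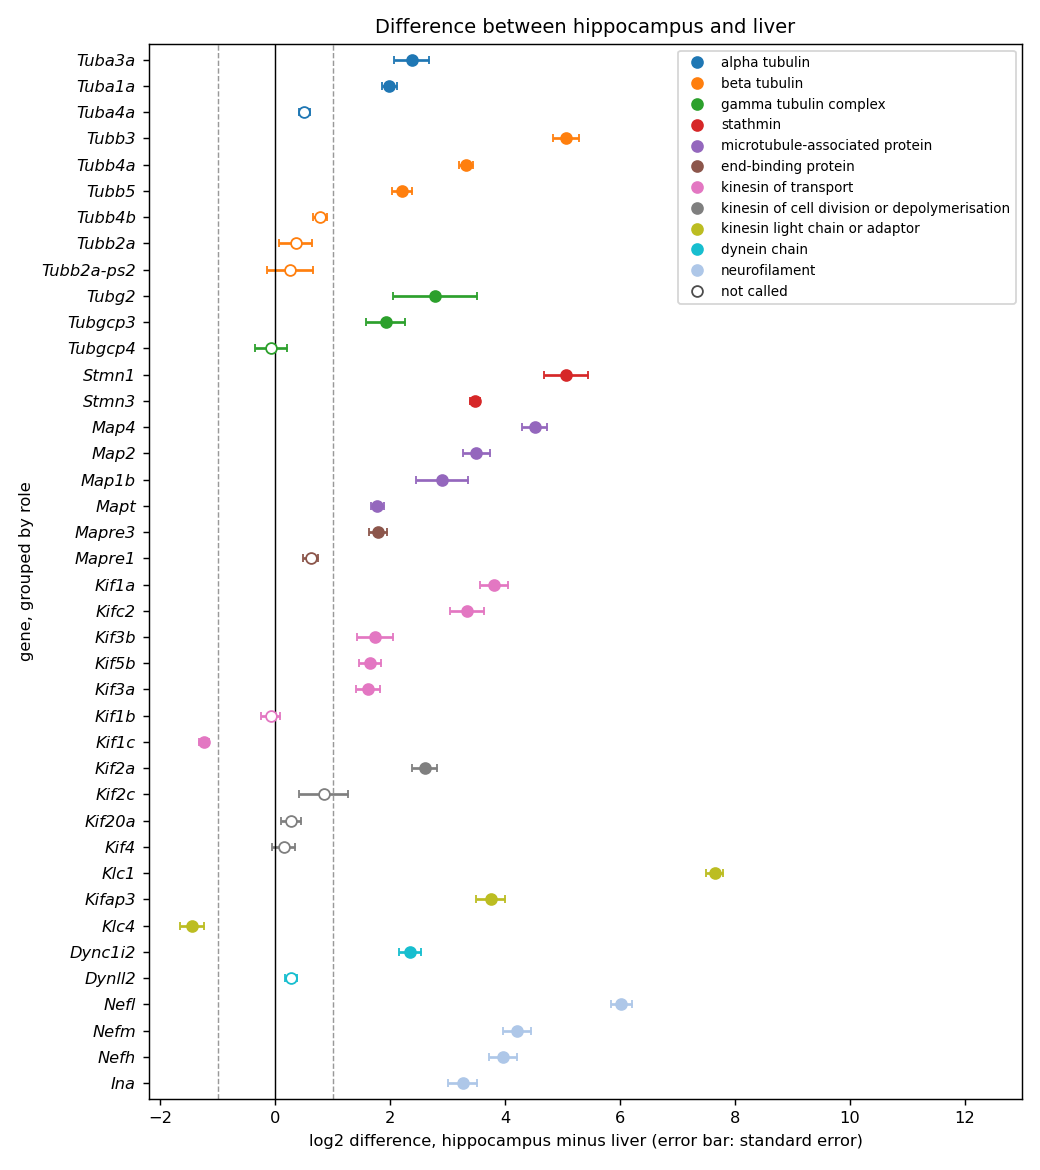
Log2 difference, hippocampus minus liver, with its standard error, for the 40 member genes tested, coloured by role. Filled points were called (limma, adjusted p under 0.05 and at least 2-fold), open points were not, and dashed lines mark 2-fold. The 4 neurofilaments lie between 3.26 and 6.03, and Kif1c at -1.24 and Klc4 at -1.45 are the called points on the liver side.

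Genes that work with these proteins but lie outside the rule were read the same way. The lists held 12 dynactin, 10 dynein regulator and plus-end, 8 cargo adaptor and 19 other microtubule genes, and only some were tested. Over all 5251 genes tested, 26.1% were called higher in hippocampus and 17.4% lower. Of 7 dynactin and capping genes tested, 5 were called higher in hippocampus and 0 lower; Dctn1, the dynactin arm that binds dynein, differed by 4.31 (SE 0.44). All 4 dynein regulators and plus-end factors tested were higher, among them Pafah1b1 (LIS1) at 2.30 (SE 0.16). All 4 motor cargo adaptors tested were higher, led by Mapk8ip1 at 5.97 (SE 0.19), which read -164 to -119 in liver. The 4 other microtubule-binding or modifying genes tested were higher as well, such as Cdk5, a tau kinase, at 3.58 (SE 0.21). Cdk5, Mapk8ip1 and another cargo adaptor, Mapk8ip3, were at the floor on every liver array, which holds their differences down. They were tested only because hippocampus was above the floor, and their SE reflects no variation among the liver arrays. Of the 10 chaperonin and tubulin cofactor genes tested, 0 were called, their median log2 difference was 0.22, and Tcp1, a chaperonin subunit, read 446 to 485 in hippocampus and 216 to 278 in liver. In limma 6 of the 10 had an unadjusted p under 0.05, and 5 passed after adjustment at under 2-fold, all 5 higher in hippocampus (4 higher and 2 lower with quantile normalization), among them Tbcb at 0.96 (SE 0.16; adjusted p = 0.00207). Of 9 other intermediate filament genes tested, 3 were called higher and 2 lower, the latter Krt8 at -5.80 (SE 0.16) and Krt18 at -5.15 (SE 0.14), the keratins of hepatocytes. Both keratins were at the floor on every hippocampus array, as was Lmnb2, among the 3 called higher, on every liver array. Their SE reflects no variation in that tissue.

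Within hippocampus few of these genes lay 2-fold from the control diet. With 1 RNA per diet these ratios have no replicate and no test, and all 3 oil diets are set against the same control array. Among the 33 member genes at or above the median hippocampus intensity of their chip, 3 lay at least 2-fold from the control array with fungal oil, against 4.68% of the 3506 genes of that brightness. With fish oil 1 of 33 did, against 4.51%, and with both oils 0 of the 10 on chip B, against 7.04% of 994 genes. The 2 liver control RNAs, which had the same diet, differed by 2-fold in 1 of 20 member genes, Map1b, and in 7.11% of 3490 genes. The median size of the log2 ratio was 0.17 for members and 0.19 for all genes with fungal oil, 0.16 and 0.18 with fish oil, and 0.075 and 0.22 with both oils.

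**Figure D3:**
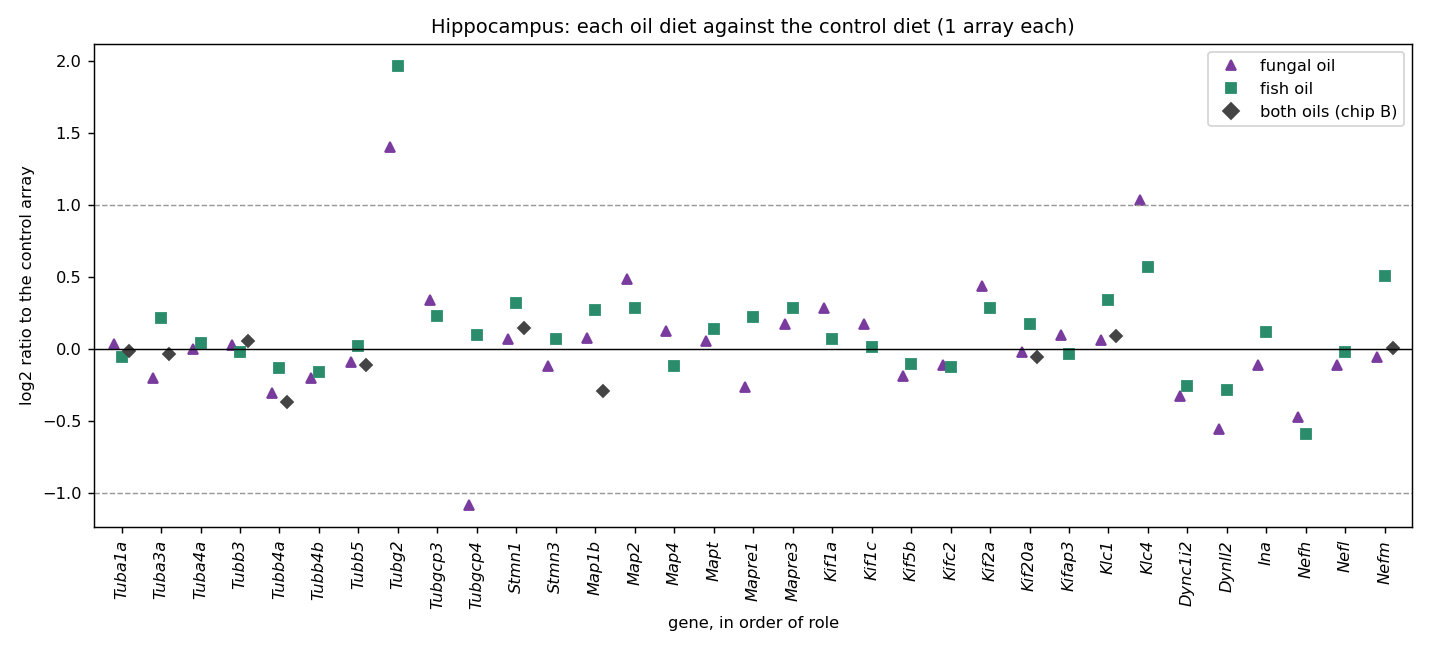
Log2 ratio of each oil diet's hippocampus array to the control array, for the 33 member genes at or above the median intensity of their chip; each point is 1 array over 1 array, with no error bar. Dashed lines mark 2-fold. Tubg2, at 1.40 with fungal oil and 1.97 with fish oil, lies farthest from 0, and Klc4 and Tubgcp4 pass 2-fold with fungal oil alone.

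The genes past 2-fold came from the gamma-tubulin complex and the light chains. Tubg2 read 79 with control diet, 209 with fungal oil and 309 with fish oil, log2 ratios of 1.40 and 1.97. Its liver values ran from -52 to 67, and the 2 liver controls read -37 and 67. Set against the mean of the other hippocampus arrays, its log2 ratio was 0.42 with fungal oil and 1.27 with fish oil. Tubgcp4 read 72, 34 and 77, a log2 ratio of -1.08 with fungal oil, while its companion probe set read 45, 46 and 44. Klc4 read 179, 367 and 266, a log2 ratio of 1.04 with fungal oil, while its companion read 212, 207 and 239. For both genes the companion moved by far less, and averaged over probe sets neither reached 2-fold, at -0.53 and 0.50. A Klc1 probe set other than the representative read 574, 234, 607 and 574, low with fungal oil alone, while the representative read 2745, 2864, 3484 and 2927.

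Of the 33 members, 21 lay within 0.25 of the control on the log2 scale with fungal oil and 21 with fish oil, where 2110 and 2226 of the 3506 genes did. With both oils 8 of 10 did, where 546 of the 994 genes did. Tubulins Tuba1a, Tuba4a and Tubb3 lay within 0.058 of 0 on the log2 scale in each oil diet measured, by their representative probe sets. Tubb4a read 2048 in the control and 1657, 1869 and 1588 with fungal oil, fish oil and both oils, the lowest ratio being -0.37. Stmn3, Nefl, Kifc2 and Kifap3 had ratios between -0.12 and 0.10. Nefh was the widest of the neurofilaments in the downward direction, 290 with control and 209 and 193 with the oils, ratios of -0.47 and -0.59. Nefm was the widest upward, 363 with fish oil against 255 in the control, a ratio of 0.51, while with both oils it read 256. Nefh and Nefm were read on different chips, each value from a single array. Dynll2 read 3859, 2635 and 3179 (ratios -0.55 and -0.28), but its companion probe set read 2629, 2711 and 2975. Dync1i2, Map2 and Kif2a ranged over 1.25-fold, 1.40-fold and 1.36-fold across the diets. The range over the 3 chip A arrays had a median of 0.29 for 23 members and 0.28 for 2512 genes, and over the 4 chip B arrays 0.33 for 10 members and 0.45 for 994 genes. On chip B the fish oil array was the highest of the 4 for 7 of the 10 members and for 32.6% of the 994 genes, the largest share of the 4 arrays for both.

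On chip B the 4 diets form a factorial design, and an additive limma fit of the oils has 1 residual degree of freedom. It called 0 of 994 genes for either oil, with a lowest adjusted p of 0.999 for fungal oil and 0.998 for fish oil. At an unadjusted p under 0.05 it held 47 and 31 genes, none of the 10 members among them. Tubb4a had the lowest unadjusted p among members, at a log2 difference of -0.27 (SE 0.11) for fungal oil, with adjusted p = 0.999. Neuron markers were alike across the hippocampus arrays, with sums of 3611 to 3769 on chip A and 6608 to 7230 on chip B. Markers of choroid plexus and meninges were not. Their sum on chip A ran from 1426 to 4634, and Ptgds, a secreted protein of the meninges, had log2 ratios of 2.32 with fungal oil and 1.56 with fish oil. The ratios of Ttr were 0.69 and -0.95, of Kl 0.61 and -0.29, and of Igf2 1.19 and 0.23, and the list's medians were 0.69 and 0.12. All 5 of those markers were measured and none was at the floor in hippocampus. How much tissue from beside the hippocampus bears on the ratios of Tubg2, Klc4 and Tubgcp4 was not tested.

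In liver, 20 member genes had a representative probe set at or above the median intensity of its chip. With each oil diet against the 2 controls, limma called 0 of 3490 genes (0%) and 0 of the 20 members. The lowest adjusted p among members was 0.505 with fungal oil, 0.415 with fish oil and 0.390 with both oils. Unadjusted p-values under 0.05 were held by 4, 1 and 5 members, each of them lower than the controls, and by 347, 396 and 356 genes. The share of members was larger than that of all genes with fungal oil and with both oils, and smaller with fish oil. Among all genes too, more of those at that level were lower than higher in each oil diet. With fungal oil the 4 members were Tubb4b, Tubb5, Tuba4a and Kifc2. With both oils they were Tubb4b, Tubb5, Tuba4a, Tuba1a and Klc4. With fish oil it was Dync1i2, which read 105 and 97 in the controls and 51 with fish oil.

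The alpha- and beta-tubulin probe sets of liver, none of which passed the test, lay on 1 side of the controls with fungal oil. In all, 9 probe sets of 7 genes were at or above the median intensity of their chip. With fungal oil all 9 read below both controls, where 38.4% of 4078 probe sets did, and their median log2 difference was -0.45. With both oils 6 of 9 did, against 34.3%, with a median of -0.43, and with fish oil 0 of 9 did, against 37.6%, and 6 read above both controls, against 36.4%, with a median of 0.26. The 9 are not independent, since 6 are family probe sets whose sequences can catch one another's transcripts and since all share the same RNAs. Tubb5 read 595 and 603 in the controls, 349 with fungal oil, 641 with fish oil and 307 with both oils. Its controls were close together and the RNAs of the diets with fungal oil lay well apart from them, at log2 differences of -0.78 and -0.96 (SE 0.14; limma, adjusted p = 0.505 and 0.390). In its other probe set the controls were far apart, at 502 and 347, and the oil RNAs read 321, 501 and 255, with differences of -0.38 and -0.71 for fungal oil and both oils (SE 0.31; limma, adjusted p = 0.758 and 0.579). Tubb4b read 937 and 852 in the controls and 573, 929 and 538 with fungal oil, fish oil and both oils, log2 differences of -0.64, 0.056 and -0.73 (SE 0.12; limma, adjusted p = 0.505, 0.859 and 0.390). Tuba1a on chip A read 761 and 812, then 574, 1000 and 500, and its chip B values, given above with the tissues, have the same order. Tuba4a, whose probe set is not of the family kind, read 1521 and 1417 in the controls and 1195, 1680 and 1136 in the oil diets, log2 differences of -0.30, 0.19 and -0.37 (SE 0.09; limma, adjusted p = 0.544, 0.544 and 0.470). Tuba3a read 94 and 48 in the controls, 34 with fungal oil and 102 with both oils. Tubb2a-ps2 read 57 and 38 in the controls, 27 with fungal oil and 59 with both oils. With both oils each was thus only a little above the higher control.

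**Figure D4:**
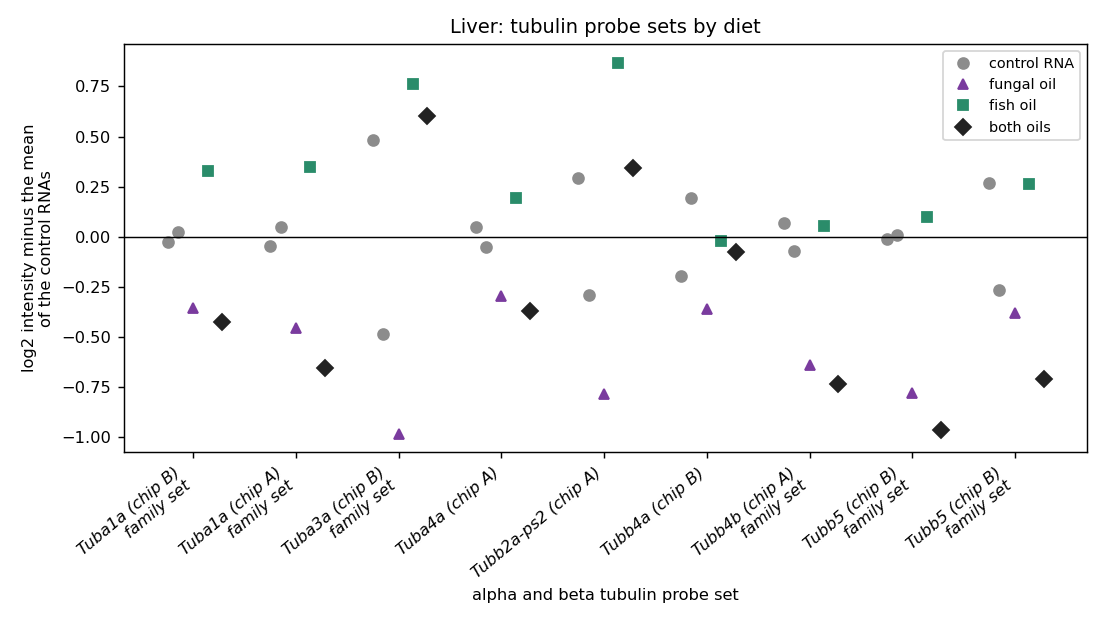
Log2 intensity of the 9 alpha- and beta-tubulin probe sets in liver, minus the mean of the 2 control RNAs. Grey points are the controls, triangles fungal oil, squares fish oil and diamonds both oils, 1 RNA each. All 9 triangles lie below both controls, and the diamonds lie below them for 6 probe sets.

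An additive fit of the oils to the same 5 liver RNAs, with 2 residual degrees of freedom, gave Tubb5 a log2 difference of -0.90 (SE 0.18; limma, adjusted p = 0.219) for fungal oil and -0.023 (SE 0.18) for fish oil. For Tubb4b it gave -0.70 (SE 0.11; limma, adjusted p = 0.178) for fungal oil, and no member was called. In hippocampus Tubb5 read 2222 with control diet and 2090, 2257 and 2065 in the oil diets, log2 ratios of -0.088, 0.023 and -0.11. A test of whether an oil acts differently in the tissues, added after the data had been seen, called 0 of 5251 genes for either oil. With fungal oil and fish oil, 568 and 525 genes, and 9 and 4 of the 40 members tested, had an unadjusted p under 0.05. Among those members, Map2, Kif2a and Nefh with fungal oil and Nefh with fish oil were at the floor on every liver array. The floor sets their liver oil effect to 0, so for them the test reads the hippocampus ratio alone. The lowest adjusted p among members was 0.113, for Klc4 with fungal oil (difference of log2 effects 1.08, SE 0.07), and for Tubb5 the difference was 0.79 (SE 0.16; limma, adjusted p = 0.199). With fungal oil the other probe set of Klc4 gave a difference of -0.062 (SE 0.18), and that of Tubb5 gave 0.43 (SE 0.33). Outside the tubulins, the largest liver differences among kinesin and dynein genes with a bright representative probe set were not called either. Dync1i2 read 105 and 97 in the controls and 51 with fish oil (log2 -0.98, SE 0.23; limma, adjusted p = 0.415). Kifc2 read 65 and 70 in the controls, 36 with fungal oil and 116 with fish oil (log2 -0.91 and 0.78, SE 0.27; limma, adjusted p = 0.544 and 0.459). The representative probe set of Dynll2 lay within 0.18 of the controls on the log2 scale in each oil diet, and its other probe set at 0.0092, -0.31 and -0.22 with fungal oil, fish oil and both oils. Kif1c read 409, 411 and 395 against 380 and 382. Klc1 had its representative probe set at the floor in liver, but its other probe sets were bright there and differed more with fish oil. Their log2 differences were -1.35 (SE 0.29), -1.50 (SE 0.39) and 1.31 (SE 0.88), in opposite directions, and none was called.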

How the data were processed

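For each of 17 arrays, 8 of chip A and 9 of chip B, the authors deposited an intensity for every probe set, as whole numbers that can be negative. How they were computed, background and scaling included, is not given in the sources used here, and their trimmed means were already close to a common value. Intensities under 15 (0.1 of a trimmed mean of 150) were set to that floor and log2 was taken. Arrays number few, and this and signal over background limit the precision.

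Groups came from titles and descriptions. Symbols came from the platform annotation, updated through gene identifiers, which changed 0 of them. A gene is represented by its probe set with the highest mean of the 2 tissue means, and other probe sets are given where they disagree. Of 42 genes, those at or above the 75th percentile of hippocampus intensity, the largest tissue differences and those past 2-fold in a hippocampus diet are named with their values. The members and lists were chosen with earlier results of these data known.

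Fits used limma 3.58.1 in R 4.3.3 (lmFit, eBayes with an intensity trend), per chip, with Benjamini-Hochberg adjustment over both chips. The tissue fit had tissue and diet as terms, after scaling every array to a trimmed mean of 150, for probe sets above the floor on at least 2 arrays. It had 3 residual degrees of freedom on chip A and 4 on chip B. On chip A the diet with both oils had a liver array alone. Its diet term takes up that array, which therefore adds nothing to the tissue difference, though liver ranges include it. Hippocampus ratios and the liver fit of 4 diet groups (1 residual degree of freedom, from the controls) used the deposited values, for probe sets whose mean in that tissue reached the median of the chip. Each fit was tested on simulated data. Alternatives were quantile normalization, 0.5 and 2.5 times the floor, other filters, no intensity trend, tissue without diet, each array left out, averaging the probe sets of a gene and another hippocampus reference. An additive liver fit, liver arrays scaled alike, the tissue-by-oil test and the controls alone were added after seeing the data. Promoters are RefSeq's (GRCm38.p6), and protein sequences are not used here. Figures were drawn with matplotlib 3.10.9.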

Additional observations from a re-analysis of the deposited data

How the results depend on the processing

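Of the 29 members called between tissues, 25 kept their call and direction under every alternative in which they were tested. With a filter at the median of brightness 24 members were called higher, and Kif2a, Kif3a and Kif3b were not tested. Kif3a and Kif3b lost their call with 2.5 times the floor, and Kif1c when the probe sets of a gene were averaged, which left 1 member called lower. Tubg2 lost its call without the fungal oil or the fish oil hippocampus array. Leaving out 1 array at a time gave 26 to 28 members called higher and 2 lower. Of the 11 tested but uncalled, Dynll2, Tubb4b and Tuba4a were called under quantile normalization (1.18, 1.28 and 1.21), which moved the median of all genes from 0.20 to -0.0092 and the share of higher calls from 60.0% to 50.8%. With the mean over probe sets Mapre1 was called (1.08) and Klc1 moved from 7.64 to 1.17, and Kif2c was called without the hippocampus control array (1.45). In hippocampus the 3 members past 2-fold with fungal oil became 1 against the mean of the other arrays and 1 with the mean over probe sets, and with no filter on brightness fish oil had 2, Kif3b being the other.

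In liver, genes called rose from 0 to 17, 20 and 24 for fungal oil, fish oil and both oils when the brightness filter was raised to the 75th percentile, to 3 for fungal oil in the additive fit, and to 3 for both oils with arrays scaled alike. Members called stayed at 0 in each of these, with a lowest adjusted p between 0.0891 and 0.582. The small fish oil differences changed sign: Tubb4b (0.056) to -0.014 with quantile normalization and -0.0068 in the additive fit, Tubb5 (0.098) to -0.023 and Tubb4a (-0.021) to 0.11 in the additive fit. Without 1 liver control, Tubb4b ranged from -0.012 to 0.12 and Tubb4a from -0.21 to 0.17 with fish oil, and Tubb4a from -0.27 to 0.12 with both oils. The cause was not tested. With the control arrays of both tissues alone, run with no test, 39 of 40 members kept their sign, Kif2c being the exception. Those arrays are also part of the tissue fit, so the count is no independent check of it.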
